A study of Mus musculus with 1470 samples.

Results

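The 10 chemokine ligands described here were Ccl3, Ccl4, Ccl5, Ccl6, Ccl9, Ccl24, Cxcl9, Cxcl10, Cxcl12 and Cxcl16, taken by gene symbol from the 14915 gene rows of the expression table. Each had 1 row, and the question was which liver cell class carried the transcript of each ligand and whether its level differed between the diets. Chemokines are small secreted proteins that bind G-protein-coupled receptors on leukocytes and guide their movement. In the liver they are made by resident macrophages, sinusoidal endothelial cells and lymphocytes, and they help to position T cells, NK cells and monocytes in the sinusoids. Ccl6 and Ccl9 signal through Ccr1, Ccl24 (eotaxin-2) through Ccr3, Cxcl9 and Cxcl10 through Cxcr3, Cxcl12 through Cxcr4 and Cxcl16 through Cxcr6.

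The cells were non-parenchymal cells (NPCs, liver cells other than hepatocytes) of male wild-type C57BL/6J mice, of which 3 were fed a normal diet (ND) and 3 a high-fat diet (HFD) from 5 weeks of age for 9 weeks. Livers were perfused in vivo with collagenase, hepatocytes were pelleted away, and live single cells were index sorted for Smart-seq2, which reads whole transcripts of single cells and carries no molecular identifiers. The table held 1470 cells, 718 from ND mice and 752 from HFD mice. The median number of genes per cell (RPKM of at least 1) was between 2363.5 and 3163 in 5 mice and 1595.5 in HFD mouse 2, and the estimated number of exon reads per cell had a median between 86452 and 196681 per mouse.

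Cells were grouped into 13 classes from marker genes, and chemokine ligands and receptors were left out of the genes used for clustering. The 8 classes with enough mice to be compared held 1356 cells. On average over the mice, endothelial-like cells were 30.7% of the cells, Kupffer-like cells (KC-like, the resident macrophages) 17.1%, B-cell-like 16.7%, other T-cell-like 9.72%, CD4 T-cell-like 6.13%, CD8 T-cell-like 5.21%, monocyte/macrophage-like 3.51% and NK-like 3.26%. T-cell-like cells were divided by Cd4, Cd8a and Cd8b1, and those with neither or with both kinds were called other T-cell-like. The 5 remaining classes, with 11 to 37 cells each, were hepatocyte-like, erythroid-like, pDC-like, neutrophil-like and cDC-like. The class markers examined were highest in the class they stand for, but they were also detected outside it. Alb, a hepatocyte gene, was the most widespread, with a mean level (log2(RPKM + 1)) of 12.7 in hepatocyte-like, 9.60 in KC-like and 7.05 in endothelial-like cells. It had 3.92 to 6.06 in the remaining classes. C1qa, a complement gene of Kupffer cells, had a mean level (log2(RPKM + 1)) of 12.9 in KC-like cells and of 3.43 to 4.71 in the other classes. Gpr182, an endothelial receptor, had 11.2 in endothelial-like cells and 3.83 to 5.39 elsewhere. Markers of lymphocytes were lower outside their classes, with 0.93 to 2.38 for Gzma, a granzyme of NK cells, and 1.98 to 3.08 for Cd3e, a T-cell receptor subunit.

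Below, the level of a ligand is the mean of log2(RPKM + 1) over the cells of a class in 1 mouse, given as mean ± SD over mice (n = 6). RPKM is scaled by transcript length, but a low level also depends on how many RPKM 1 read is worth. This differs between genes, so that low levels of different genes are not on the same scale. A ligand was counted as detected in a cell at RPKM of at least 1. At the median depth 1 read was worth between 1.46 RPKM for Cxcl12 and 15.5 RPKM for Ccl5, so that detection was close to the presence of a read. Ccl5 was detected in 1251 cells (85.1%), Cxcl16 in 819 (55.7%), Ccl6 in 627 (42.7%), Ccl24 in 300 (20.4%) and Cxcl9 in 16.6%. The other 5 ligands were in fewer cells, from 5.37% with Ccl3 to 11.5% with Cxcl10.

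In GRCm38 the genes of 5 ligands lay within 138.9 kb of chromosome 11, namely Ccl5 (chr11:83525778-83530518, minus strand), Ccl9 (chr11:83572919-83578636, minus), Ccl6 (chr11:83587882-83593087, minus), Ccl3 (chr11:83647844-83649355, minus) and Ccl4 (chr11:83662584-83664683, plus). Cxcl9 (chr5:92321347-92328079, minus) and Cxcl10 (chr5:92346638-92348889, minus) lay within 27.5 kb of chromosome 5. Ccl24 was at chr5:135569937-135573049 (minus), Cxcl12 at chr6:117168535-117181367 (plus) and Cxcl16 at chr11:70453983-70459984 (minus). No 50-base stretch of a ligand's exons was shared with another of the 10. Of the stretches of Cxcl16, 20.02% were shared with Zmynd15, a gene that overlaps it, and of those of Cxcl10, 8.04% with the overlapping Art3, and reads there cannot be told apart.

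Promoters of 6 of the ligands (Ccl3, Ccl6, Ccl9, Cxcl9, Cxcl10 and Cxcl12) were found by symbol in RefSeq sequences of GRCm38.p6, and the 250 bases before the start of 2 neighbouring pairs are shown, since the genes of each pair lie side by side. They run 5′ to 3′ on the gene's own strand, and capitals mark matches, on either strand, to GGGNNTTNC (NF-kappaB-like) and TTCNNTTTC (ISRE-like, the element of interferon response genes). The first pair, Ccl6 (chr11:83593088-83593337, minus strand) and Ccl9 (chr11:83578637-83578886, minus), is from the chromosome 11 group. The second pair, Cxcl9 (chr5:92328080-92328329, minus) and Cxcl10 (chr5:92348890-92349139, minus), holds the ligands of Cxcr3.
Ccl6: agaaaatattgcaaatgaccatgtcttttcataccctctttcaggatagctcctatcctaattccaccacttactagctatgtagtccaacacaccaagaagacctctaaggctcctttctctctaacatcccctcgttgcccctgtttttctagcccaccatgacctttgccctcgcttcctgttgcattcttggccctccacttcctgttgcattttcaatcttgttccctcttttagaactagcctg
Ccl9: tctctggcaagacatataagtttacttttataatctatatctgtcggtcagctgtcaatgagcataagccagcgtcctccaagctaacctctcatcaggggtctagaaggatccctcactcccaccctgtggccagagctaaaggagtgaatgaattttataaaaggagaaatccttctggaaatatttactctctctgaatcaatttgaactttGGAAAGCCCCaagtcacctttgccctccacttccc
Cxcl9: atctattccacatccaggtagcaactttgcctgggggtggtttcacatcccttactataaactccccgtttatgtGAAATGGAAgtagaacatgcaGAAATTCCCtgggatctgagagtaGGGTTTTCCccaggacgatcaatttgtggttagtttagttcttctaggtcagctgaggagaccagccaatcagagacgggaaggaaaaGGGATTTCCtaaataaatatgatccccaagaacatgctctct
Cxcl10: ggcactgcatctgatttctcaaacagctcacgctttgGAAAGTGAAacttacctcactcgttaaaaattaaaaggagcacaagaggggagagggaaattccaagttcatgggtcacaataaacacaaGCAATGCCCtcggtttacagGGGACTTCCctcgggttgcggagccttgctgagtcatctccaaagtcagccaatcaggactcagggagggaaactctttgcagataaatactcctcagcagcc
GGGNNTTNC was found 3 times in Cxcl9, 2 times in Cxcl10 and 2 times in Ccl9, where the matches overlap at 35 and 34 bases before the start, and in 13.001% of all 32851 promoters of the same length. TTCNNTTTC was found 1 time each in Cxcl9, in Cxcl10 and in Ccl3 (39 bases before the start, not shown), and in 7.13% of all promoters. Of the 6 promoters, those of Ccl6 and Cxcl12 held neither set of letters. Also searched, and not marked, were TTCNNNGAA and TATAAA. TTCNNNGAA was found in 0 of the 6 promoters and in 7.02% of all. TATAAA was found 3 times in Ccl9 and 1 time in Cxcl9, and in 12.4% of all promoters. The letters of GGGNNTTNC and TTCNNTTTC were altered after the sequences had been seen, and the matches are a description of the sequence. Other forms of these elements are not marked, and no match was tested as a binding site.

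Ccl5, which attracts T cells, NK cells and monocytes, had the highest level of the 10 ligands, and it was highest in NK-like cells. Its level there was 14.06, 14.16 and 14.82 in ND mice 1, 2 and 3 and 14.62, 13.75 and 14.17 in HFD mice 1, 2 and 3, and it was detected in all 50 NK-like cells. In other T-cell-like cells the level was 9.95, 10.26 and 11.98 in ND mice and 10.36, 8.87 and 11.13 in HFD mice. Every NK-like value was above every value of other T-cell-like cells, and the difference between these 2 classes was 3.84 ± 0.52 (SE; limma with a mouse term, adjusted p = 2.21e-07 over 4172 genes), where 2.37% of the genes tested were called higher in NK-like cells. The 3 T-cell-like classes overlapped, with 10.42 ± 1.06 in other, 9.99 ± 1.37 in CD4 and 9.72 ± 2.21 in CD8 T-cell-like cells. The wide spread among CD8 T-cell-like cells came with 6.03 in ND mouse 1 (7 cells) beside 8.08 to 11.36 in the other mice. Outside T and NK cells the class means were between 4.21 and 5.36 (over the mice with at least 3 cells of the class), endothelial-like, B-cell-like and hepatocyte-like cells included, with detection in 78.7 to 100% of cells. C1qa and Gpr182 had like levels outside their own classes, whereas Gzma and Cd3e were lower there. At the median depth 1 read of Ccl5 was worth 15.5 RPKM. This value depends on transcript length, so that these genes are not on the same scale at low levels. Whether the Ccl5 level came from RNA of other cells was not tested. In the 2 clusters that made up the T-cell-like cells, Ccl5 was higher in the cluster led by Cd3g, Cd3e and Cd3d, whose 10 leading genes included Nkg7, Cxcr3 and Cxcr6, in 6 of 6 mice. The levels were 11.17 ± 0.77 in that cluster (median of 2851.5 genes per cell) and 8.47 ± 1.65 in the cluster led by Cd3e, Lat and Thy1, with Tcf7 and Ltb (2014.5 genes).

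Ccl4, a chemokine of activated lymphocytes and macrophages, was highest in NK-like cells too, at a far lower level and in some of the cells. NK-like cells had 5.18, 5.33 and 2.76 in ND mice and 3.17, 2.11 and 0.69 in HFD mice, with Ccl4 detected in 7 of 11, 4 of 7, 2 of 7, 3 of 6, 4 of 16 and 1 of 3 cells. CD8 T-cell-like cells, the next class, had 0, 1.92 and 0.78 in ND mice and 3.59, 1.01 and 0 in HFD mice. NK-like cells were higher in 5 of 6 mice (the exception was HFD mouse 1), the ranges overlapped, and the difference was 1.99 ± 0.46 (SE; limma, adjusted p = 0.0019), beside 3.11% of the genes tested called higher in NK-like cells. The call was lost without ND mouse 1 (difference 1.35, adjusted p = 0.0723) and when RPKM was averaged before the logarithm (adjusted p = 0.441). Few cells set these values. The 10 cells with the highest Ccl4 held 84.3% of its summed RPKM over all cells, and 4 of these 10 were NK-like.

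Ccl3, whose gene lies next to that of Ccl4, was low in every class. NK-like cells had 0, 1.21 and 1.18 in ND mice and 3.27, 1.30 and 0.63 in HFD mice, and monocyte/macrophage-like cells had 2.04, 0.53 and 0 in ND mice and 2.09, 1.11 and 0 in HFD mice. The 2 classes overlapped over almost their whole range, and the difference of 0.30 ± 0.33 (SE) was not called by limma (adjusted p = 0.511), where 7.27% of the genes tested were higher in NK-like cells. Ccl3 was in 7 of 50 NK-like cells and in 17 KC-like cells (7.10%, mean of 6 mice), and its other classes had 0 to 0.45. In NK-like cells pooled over the mice, Ccl4 was detected in 71.4% of the 7 cells with Ccl3 and in 37.2% of the cells without it. These cells had a median of 2372 and 2336 genes. By mouse, Ccl4 was in 1 of 1, 1 of 1, 1 of 2, 1 of 2 and 1 of 1 cells with Ccl3 in ND mice 2 and 3 and HFD mice 1, 2 and 3. ND mouse 1 had Ccl4 in 7 of 11 cells and 0 cells with Ccl3. In HFD mouse 1 the shares with and without Ccl3 were 50% and 50%. In KC-like cells both were found together only in HFD mouse 1 (4 of 4 cells with Ccl3) and HFD mouse 3 (3 of 4 cells), and in 0 of the 3, 2, 3 and 1 cells with Ccl3 of ND mice 1, 2 and 3 and HFD mouse 2.

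**Figure D1:**
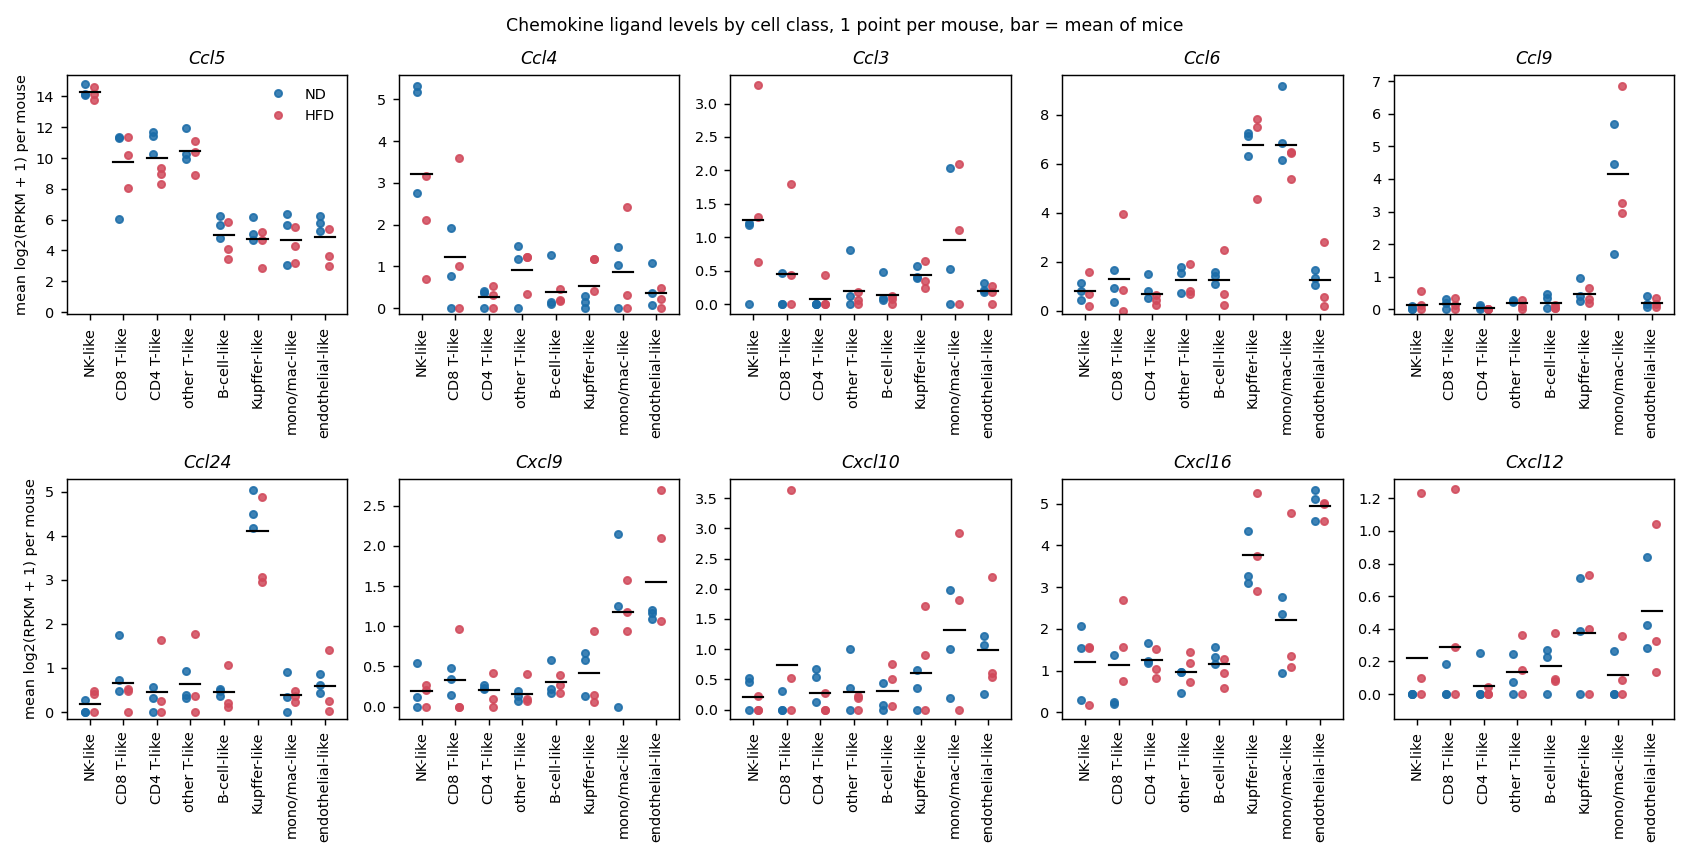
Level of each ligand (mean log2(RPKM + 1) per mouse, y axis, own scale in each panel) in the 8 classes compared (x axis), with 1 point per mouse, ND in blue and HFD in red, and a bar at the mean of the mice. Ccl5 in NK-like cells (14.26), Ccl9 in monocyte/macrophage-like cells (4.15) and Ccl24 in KC-like cells (4.10) stand clear of the class next below them, and the leading classes of the other ligands overlap that class.

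Ccl6, a macrophage chemokine that binds Ccr1, was carried by both macrophage classes. KC-like cells had 6.32, 7.14 and 7.26 in ND mice and 7.82, 4.55 and 7.49 in HFD mice, and monocyte/macrophage-like cells had 9.19, 6.87 and 6.15 in ND mice and 6.46, 5.39 and 6.50 in HFD mice. Both means were 6.76, with a difference of 0.0017 ± 0.44 (SE; limma, adjusted p = 0.998), where 6.57% of the genes tested were higher in KC-like cells, and HFD mouse 2 was lowest in both classes. Ccl6 was detected in 86.98% ± 12.95 of KC-like and 87.59% ± 13.89 of monocyte/macrophage-like cells (SD, n = 6). All monocyte/macrophage-like values were above all values of CD8 T-cell-like cells, the next class at 1.29 ± 1.43. The 14 neutrophil-like cells, 2 or 3 per mouse and outside the comparison, had 3.80 to 11.30 and Ccl6 in 12 cells.

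Ccl9, the neighbour of Ccl6 and also a ligand of Ccr1, was carried by monocyte/macrophage-like cells and was far lower in KC-like cells. Its level in monocyte/macrophage-like cells was 4.46, 5.68 and 1.70 in ND mice and 6.86, 2.96 and 3.25 in HFD mice. KC-like cells had 0.95, 0.27 and 0.41 in ND mice and 0.32, 0.21 and 0.66 in HFD mice, so that the 2 classes did not overlap in any mouse. The difference was 3.68 ± 0.40 (SE; limma, adjusted p = 3.45e-10), beside 38.98% of the genes tested called higher in monocyte/macrophage-like cells, a high share for this pair of classes. Ccl9 was detected in 57.7% of monocyte/macrophage-like cells and in 13.9% of KC-like cells (means of 6 mice), and in 2.06 to 8.79% of the other 6 classes compared. In monocyte/macrophage-like cells, 24 of the 41 cells with Ccl6 also had Ccl9, and 3 of the 7 cells without Ccl6 had it, 2 of them from HFD mouse 2. The cells with Ccl6 had a median of 3181 genes and those without it 1877, so that depth moved with this comparison.

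Ccl24, a ligand of the eosinophil receptor Ccr3, was carried by KC-like cells. Their level was 5.04, 4.17 and 4.50 in ND mice and 4.89, 2.95 and 3.06 in HFD mice, with Ccl24 detected in 36 of 53, 13 of 24, 23 of 39, 35 of 52, 10 of 29 and 19 of 41 cells. CD8 T-cell-like cells, the class next below, had 0.72, 0.47 and 1.76 in ND mice and 0.53, 0 and 0.48 in HFD mice. No mouse overlapped, and the difference was 3.44 ± 0.32 (SE; limma, adjusted p = 1.04e-12 over 3959 genes), where 13.2% of the genes tested were called higher in KC-like cells. Monocyte/macrophage-like cells had only 0.39 ± 0.31, in the range of 0.19 to 0.66 of the 6 other classes compared, so that the 2 macrophage classes shared Ccl6 and differed in Ccl9 and Ccl24. KC-like cells held 95.6% ± 4.98 of the summed RPKM of Ccl24 (SD, n = 6), and all of the 10 cells with the highest Ccl24 were KC-like.

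Cxcl16, made as a membrane-bound protein that the proteases Adam10 and Adam17 can release, was highest in endothelial-like and next in KC-like cells among the 8 classes compared. Endothelial-like cells had 4.58, 5.11 and 5.34 in ND mice and 4.995, 4.58 and 5.01 in HFD mice, and KC-like cells 4.34, 3.09 and 3.27 in ND mice and 3.75, 2.92 and 5.27 in HFD mice. Endothelial-like cells were higher in 5 of 6 mice (the exception was HFD mouse 3) and the ranges overlapped. The difference was 1.16 ± 0.41 (SE; limma, adjusted p = 0.0234), where 20.9% of the genes tested were higher in endothelial-like cells. The call was lost without ND mouse 2 (adjusted p = 0.1196), ND mouse 3 (0.133) or HFD mouse 2 (0.0960), without the filter on low genes (0.0523) and with RPKM averaged before the logarithm (0.762). Zmynd15, which overlaps Cxcl16, was also higher in endothelial-like cells (2.70) than in KC-like cells (0.72), and its part in the Cxcl16 reads was not tested. Cxcl16 was detected in 76.9% of endothelial-like and 60.6% of KC-like cells, and in 37.4 to 63.3% of the other classes compared, where the level was 0.95 to 4.79 among monocyte/macrophage-like cells and the class means of the lymphocytes were 0.96 to 1.25. Of the 11 cDC-like cells, outside the comparison, 9 had Cxcl16, and its level was 4.81 and 8.51 in the 2 mice with at least 3 such cells.

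The endothelial-like cells fell into 2 clusters, and Cxcl16 differed between them in every mouse. It was 4.29 ± 0.40 in the cluster led by Gpr182, Ptprb and Dnase1l3 (271 cells, median of 2332 genes) and 5.84 ± 0.45 in the cluster led by Ramp2, Fam167b and Ppap2a (190 cells, 2981.5 genes), and the latter was higher in 6 of 6 mice. It was detected in 68.0% and 89.2% of these cells. Cxcl9 (1.66 and 1.28), Cxcl10 (0.94 and 0.99) and Cxcl12 (0.59 and 0.24) were higher in the Gpr182-led cluster in 3, 2 and 4 of 6 mice. The clusters were made from the same cells, so these values are a description with no test, and the part of the greater number of genes in the Ramp2-led cluster was not tested.

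**Figure D2:**
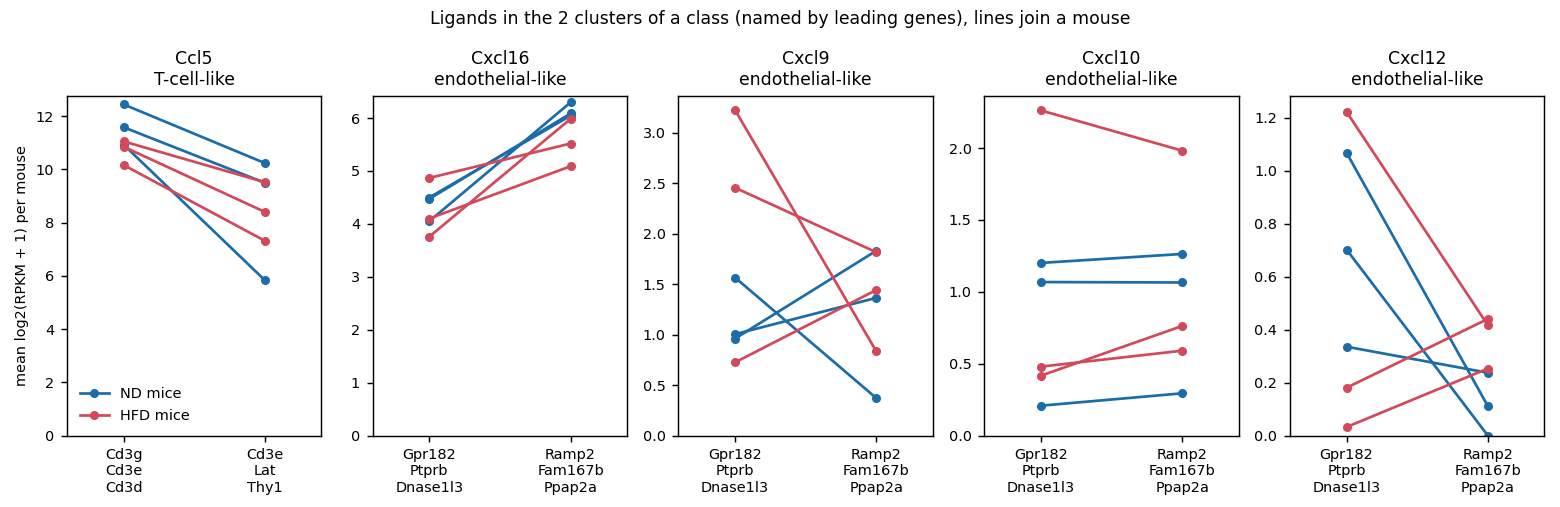
Level of Ccl5 in the 2 T-cell-like clusters and of Cxcl16, Cxcl9, Cxcl10 and Cxcl12 in the 2 endothelial-like clusters (mean log2(RPKM + 1) per mouse, y axis), with each cluster named by its 3 leading genes on the x axis and a line joining the values of 1 mouse, ND in blue and HFD in red. The lines of Ccl5 fall and those of Cxcl16 rise in 6 of 6 mice, and the lines of the other 3 ligands run both ways.

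Cxcl9, an interferon-gamma-induced ligand of Cxcr3, was low, with its highest class mean in endothelial-like cells. They had 1.17, 1.096 and 1.198 in ND mice and 2.10, 1.07 and 2.70 in HFD mice, and monocyte/macrophage-like cells had 0, 1.26 and 2.15 in ND mice and 1.18, 0.94 and 1.57 in HFD mice. The classes overlapped, and the difference of 0.37 ± 0.24 (SE) was not called by limma (adjusted p = 0.206), beside 13.5% of the genes tested called higher in endothelial-like cells. It was called without ND mouse 3 (0.64, adjusted p = 0.0453). Cxcl9 was in 28.9% of endothelial-like cells and in 5.47 to 17.6% of the cells of the other 7 classes compared. Endothelial-like cells held 73.5% ± 29.9 of its summed RPKM (SD, n = 6).

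Cxcl10, the other Cxcr3 ligand examined and an interferon response gene, had no class that stood apart. Monocyte/macrophage-like cells had 0.19, 1.99 and 1.001 in ND mice and 1.81, 0 and 2.93 in HFD mice, and endothelial-like cells 1.07, 1.23 and 0.25 in ND mice and 0.61, 0.53 and 2.20 in HFD mice. HFD mouse 3 was highest in both classes, and the difference of 0.34 ± 0.37 (SE) was not called by limma (adjusted p = 0.484), beside 30.9% of the genes tested called higher in monocyte/macrophage-like cells. With cells assigned to classes by marker score instead of clustering, it was called (1.02, adjusted p = 0.0256). Cxcl10 was detected in 67 of 461 endothelial-like and 7 of 48 monocyte/macrophage-like cells, and 3 cells held at least 50% of its summed RPKM over all 1470 cells. Of the 67 endothelial-like cells with Cxcl10, 20 also had Cxcl9, and 11 of these 20 were from HFD mouse 3. Over all mice, Cxcl10 was in 16% of the endothelial-like cells with Cxcl9 and in 13.99% of those without it, which are near each other. In monocyte/macrophage-like cells, 4 of 9 cells with Cxcl9 had Cxcl10, against 7.69% of the cells without Cxcl9. The mean level of 10 interferon response genes ranged over mice from 0.96 to 1.81 in endothelial-like, from 1.25 to 2.50 in KC-like and from 1.41 to 2.402 in monocyte/macrophage-like cells.

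Cxcl12, which retains Cxcr4-bearing cells in tissues, was near the floor in every class compared. Endothelial-like cells had 0.84, 0.43 and 0.28 in ND mice and 0.32, 0.14 and 1.05 in HFD mice, and KC-like cells 0.71, 0 and 0.39 in ND mice and 0.40, 0 and 0.73 in HFD mice. These overlapped, and Cxcl12 alone of the 10 ligands did not pass the filter on low genes. Without that filter the difference was 0.14 ± 0.16 (SE; limma, adjusted p = 0.868). It was detected in 11.2% of KC-like and 10.6% of endothelial-like cells (means of 6 mice). Hepatocyte-like cells, outside the comparison, had a level of 1.34 ± 1.43 (SD, n = 4) and Cxcl12 in 7 of 37 cells. A difference between the classes was not detected.

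Of the 10 ligands, 9 passed the filter for their pair of classes, 5 were called higher in the leading class and 3 (Ccl5, Ccl9 and Ccl24) did so without overlap of the mice. The 2 classes of each pair were picked by the same levels, so that the sign of the difference was fixed by the choice and only its size was tested. The background shares above come from classes built on other genes of the same cells, whereas chemokine genes were left out of the clustering. In the order of the 8 classes, 4 neighbouring pairs did not overlap, namely Ccl5 between NK-like and other T-cell-like, Ccl6 between monocyte/macrophage-like and CD8 T-cell-like, Ccl9 between monocyte/macrophage-like and KC-like, and Ccl24 between KC-like and CD8 T-cell-like cells. Of all genes tested in these pairs, 0.743%, 5.55%, 8.59% and 5.89% were higher in the first class without overlap. All other neighbours in the order of any ligand overlapped.

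The share of a ligand's summed RPKM that each class held depends on the number of cells of the class as well as on its level. KC-like cells, 17.1% ± 6.31 of the cells of a mouse, held 68.2% ± 12.6 of Ccl6, and monocyte/macrophage-like cells, 3.51% ± 1.201 of the cells, held 13.3%, although the mean level was 6.76 in both. Neutrophil-like cells held 11.3% of Ccl6 from 1.02% of the cells. NK-like cells, 3.26% ± 1.14 of the cells, held 34.6% ± 8.77 of Ccl5, against 24.2% in other, 22.3% in CD8 and 12.8% in CD4 T-cell-like cells. Monocyte/macrophage-like cells held 57.99% ± 23.7 of Ccl9. Endothelial-like cells held 64.9% ± 12.98 of Cxcl16 and KC-like cells 29.01% ± 15.9. For the ligands found in few cells the shares moved widely between mice, with 51.6% ± 45.5 of Cxcl10 in endothelial-like cells, 66.2% ± 31.1 of Cxcl12 in the same class, 34.8% ± 37.2 of Ccl4 in NK-like cells and 32.9% ± 32.2 of Ccl3 in KC-like cells. At least 50% of the summed RPKM over all cells lay in 2 cells for Ccl4, 3 for Cxcl10, 3 for Cxcl12 and 4 for Ccl3, against 55 for Ccl5 and 66 for Cxcl16.

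**Figure D3:**
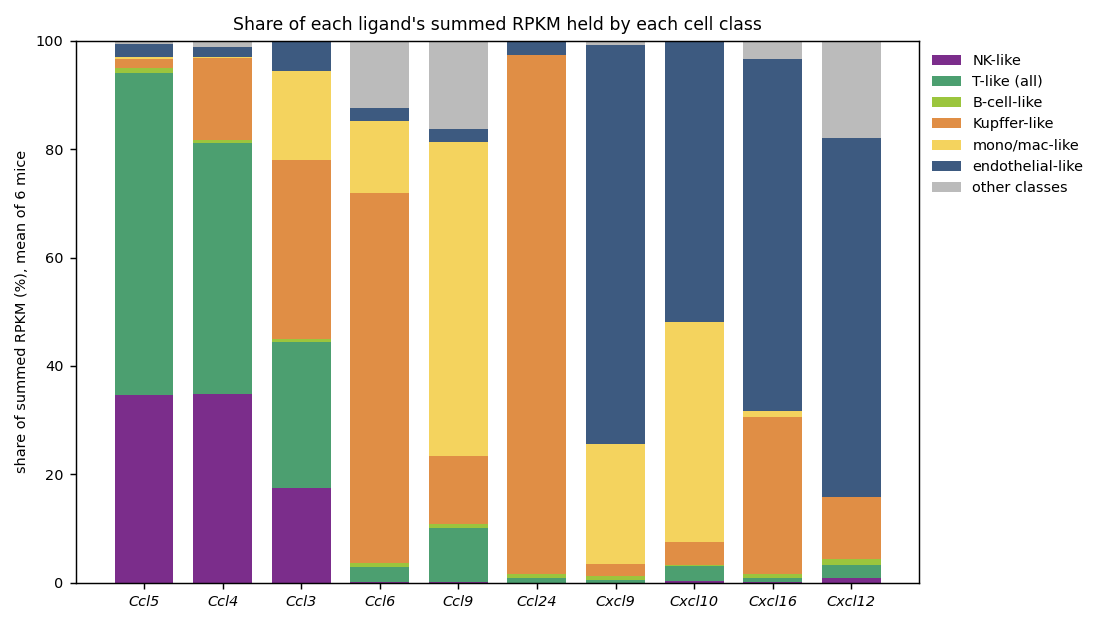
Share of the summed RPKM of each ligand (y axis, percent, mean of 6 mice) held by each class, with the 3 T-cell-like classes joined and the 5 small classes joined as other classes. KC-like cells hold 95.6% of Ccl24, monocyte/macrophage-like cells 57.99% of Ccl9, and endothelial-like cells 73.5% of Cxcl9 and 64.9% of Cxcl16.

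The genes with the pattern most like each ligand over the 48 class-by-mouse means were found among 14913 genes by Pearson's r, as a description, since these means share cells, libraries and mice. Ccl5 was most like Nkg7 (r = 0.957), Il2rb (0.928) and Klrb1c (0.917), genes of NK cells and cytotoxic T cells. Ccl6 was most like Mpeg1 (0.965), Clec12a (0.960) and Csf1r (0.947), and Ccl24 most like Siglec1 (0.947), C6 (0.945) and Folr2 (0.939). Of these, Csf1r is the receptor for the macrophage growth factor and Siglec1 and Folr2 are genes of resident macrophages. Ccl9 was most like Pi16 (0.961), Gpr141 (0.932) and Pvrl1 (0.929), and Cxcl16 most like Mrc1 (0.910), Sepp1 (0.905) and Dusp3 (0.905), where Mrc1 is the mannose receptor of sinusoidal endothelial cells and macrophages. The closest genes of the low ligands were less like them, with r = 0.834 for Cxcl9 (Rnd3), 0.772 for Cxcl12 (Mbl2), 0.764 for Ccl4 (Sult2b1), 0.738 for Cxcl10 (Slamf9) and 0.737 for Ccl3 (Itgam).

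The receptors of the ligands had other leading classes. Cxcr3, the receptor of Cxcl9 and Cxcl10, was at 6.81 ± 1.28 in CD4 and 6.68 ± 1.26 in other T-cell-like cells, and Cxcr6, the receptor of Cxcl16, at 7.50 ± 1.14 in other and 7.45 ± 1.399 in CD4 T-cell-like cells. Ccr1 was led by monocyte/macrophage-like cells among the classes compared (0.67 ± 0.69), and it was detected in 71.4% of the 14 neutrophil-like cells, a class that also had Ccl6. Cxcr4 was led by B-cell-like cells (2.83 ± 0.94). Ccr3 was not analysed here. Of the scavenging receptors, Ackr2, which takes up CC chemokines, was led by endothelial-like cells (1.61 ± 0.40), and Ackr1 (0.48 ± 0.27) and Ackr3 (0.07 ± 0.06) were low there. Adam10 was led by monocyte/macrophage-like cells (2.82 ± 0.93) with 2.61 ± 0.63 in endothelial-like cells, and Adam17 by the same class (2.02 ± 1.63) with 1.89 ± 0.82 in KC-like cells. Dpp4, a peptidase that trims chemokines including Cxcl10 and Cxcl12, was at 5.29 ± 0.59 in endothelial-like cells.

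The diets were compared for each gene in the 5 classes with at least 5 cells in every mouse, KC-like, endothelial-like, B-cell-like, T-cell-like (the 3 T classes joined) and monocyte/macrophage-like cells, as HFD minus ND with limma on the mouse means (3 against 3). The last of these comparisons was added after the other values had been seen. Of the 10 ligands, 4, 4, 3, 3 and 6 passed the filter on low genes in these classes, and 0 were called in any of them. In KC-like cells, 1 gene of 3272 was called in all (0.0306%, with 2.23% at an unadjusted p under 0.05). In endothelial-like cells it was 0 of 4221 (0.0%, with 2.37% at an unadjusted p under 0.05). In B-cell-like cells it was 0 of 3637 (0.0%, with 3.68% likewise), in T-cell-like cells 0 of 4397 (0.0%, with 4.12% likewise), and in monocyte/macrophage-like cells 0 of 5063 (0.0%, with 3.48% likewise). The called gene was Serpina1e, a hepatocyte serpin, lower in HFD by a log2 difference of -3.61 ± 0.52 (SE; limma, adjusted p = 0.0341), named after its values were seen. The part of hepatocyte RNA in its values was not tested. The median difference over all genes tested was -0.22, -0.13, -0.29, -0.29 and -0.10 in these 5 classes, and 0.10, 0.12, 0.01, 0.04 and 0.33 without HFD mouse 2, the mouse with the fewest genes per cell.

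In KC-like cells the levels of the ligands they carried overlapped between the diets. Ccl24 was at 4.57 ± 0.44 in ND and 3.63 ± 1.09 in HFD mice (SD, n = 3), where HFD mouse 1 lay among the ND mice and HFD mice 2 and 3 below them. The difference was -0.94 ± 0.58 (SE; limma, adjusted p = 0.99995), and it was 0.0152 with RPKM averaged before the logarithm. Ccl6 was at 6.90 ± 0.51 and 6.62 ± 1.80, a difference of -0.29 ± 0.75 (SE) that was 0.75 without HFD mouse 2. Cxcl16 was at 3.57 ± 0.68 and 3.98 ± 1.19, a difference of 0.41 ± 0.63 (SE) that was -0.23 without HFD mouse 3. Over the 10 ligands and the 6 classes examined (these 5 and NK-like), only Ccl4 in KC-like cells did not overlap between the diets. It had 0.29, 0 and 0.16 in ND and 1.18, 0.41 and 1.17 in HFD mice. Of the genes that passed the filter in KC-like cells, 6.27% did not overlap, a share over higher genes than Ccl4. It was detected in 2.74% of the KC-like cells of ND and 16.3% of those of HFD mice, its mean was below the filter, and without the filter its adjusted p was 0.995 (limma). In NK-like cells Ccl4 had the opposite order, with the values given above of 2.76 to 5.33 in ND and 0.69 to 3.17 in HFD mice, which overlapped in a class with 3 to 16 cells per mouse, where no diet test was made.

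In endothelial-like cells Cxcl9 was at 1.15 ± 0.05 in ND and 1.96 ± 0.82 in HFD mice (SD, n = 3), and HFD mouse 2 lay below all ND mice. The difference was 0.80 ± 0.47 (SE; limma, adjusted p = 0.9998), with 1.25 without HFD mouse 2 and 0.43 without HFD mouse 3. Cxcl10 was at 0.85 ± 0.52 and 1.11 ± 0.94, and Cxcl16 at 5.01 ± 0.39 and 4.86 ± 0.25, with a difference of -0.15 ± 0.43 (SE). The level of 15 immediate early and dissociation-response genes, which can rise when tissue is digested, ranged over mice from 1.51 to 2.52 in endothelial-like and from 0.998 to 1.98 in KC-like cells, and its part in the ligand levels was not tested.

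In monocyte/macrophage-like cells the ligands overlapped between the diets too. Ccl6 was at 7.40 ± 1.59 in ND and 6.12 ± 0.63 in HFD mice (SD, n = 3), a difference of -1.28 ± 0.93 (SE; limma, adjusted p = 0.9998) that was -0.39 without ND mouse 1. Ccl9 was at 3.95 ± 2.04 and 4.36 ± 2.17, a difference of 0.41 ± 1.03 (SE) that was -0.84 without HFD mouse 1. These means rest on 5 to 10 cells per mouse.

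Ccl5 in endothelial-like cells, a class with far less Ccl5 than T and NK cells, gave the largest difference between the diets of any ligand that passed the filter. It was 5.79, 5.27 and 6.21 in ND mice and 3.62, 2.97 and 5.39 in HFD mice, and HFD mouse 3 lay above ND mouse 2. The difference was -1.76 ± 0.55 (SE; limma, adjusted p = 0.9998). Without HFD mouse 3 it was -2.46 and was called (adjusted p = 4.57e-04), in a fit that called 47 genes. The Gpr182-led cluster had more Ccl5 than the Ramp2-led cluster in 6 of 6 mice (5.36 ± 1.45 and 3.99 ± 0.97), and the former gave 81, 37 and 25 cells in ND and 44, 52 and 32 in HFD mice, the latter 25, 24 and 29 in ND and 55, 48 and 9 in HFD mice. Within the Gpr182-led cluster Ccl5 was 6.37, 5.90 and 6.95 in ND and 3.91, 3.26 and 5.74 in HFD mice, without overlap, and within the Ramp2-led cluster it was 3.92, 4.29 and 5.56 in ND and 3.39, 2.65 and 4.15 in HFD mice, with overlap. These values within clusters are a description with no test. Markers of T cells moved with it in the same cells. The mean of the 10 T-cell markers in endothelial-like cells was 1.59, 1.35 and 1.16 in ND mice and 0.57, 0.48 and 1.401 in HFD mice, 10 of 10 markers had a lower mean in HFD and 0 were at 0 in every mouse. Nkg7, the gene most like Ccl5, had 4.86, 4.04 and 4.74 in ND and 2.76, 2.70 and 4.96 in HFD mice there. The mean of 8 NK markers did not follow it, with 0.76, 0.27 and 0.65 in ND and 0.40, 0.36 and 1.14 in HFD mice, and of the 8, 2 had a lower mean in HFD and 1 was at 0 in every mouse. The part of RNA from T and NK cells in the Ccl5 values was not tested. In T-cell-like cells, which carried Ccl5, the level was 10.74 ± 1.09 in ND and 9.78 ± 0.998 in HFD mice, and in NK-like cells 14.35 ± 0.41 and 14.18 ± 0.43, both with overlap. Of the T-cell-like cells, 42 of HFD mouse 2 and 8 to 18 of each other mouse were in the cluster with less Ccl5.

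Ccl6 gave a like pattern in endothelial-like, B-cell-like and T-cell-like cells, which do not carry it, with HFD mouse 3 apart. NK-like cells, which do not carry it either, had 1.11, 0.82 and 0.42 in ND and 1.57, 0.21 and 0.66 in HFD mice, with HFD mouse 1 highest. In endothelial-like cells it was 1.03, 1.66 and 1.32 in ND mice and 0.56, 0.21 and 2.79 in HFD mice, and HFD mouse 3 was also highest in B-cell-like (2.50) and T-cell-like cells (2.51). The mean of 9 Kupffer markers in endothelial-like cells was 3.72, 2.90 and 3.47 in ND mice and 2.38, 1.06 and 5.48 in HFD mice, and 9 of 9 markers were highest in HFD mouse 3 in each of these 3 classes. That mouse had 41 KC-like cells. The part of macrophage RNA in these Ccl6 values was not tested. The tests of whether a ligand's diet difference depended on the class, 21 in all over the 4 largest of these classes, called 0 (limma interaction, smallest unadjusted p of 0.135, adjusted p = 0.995).

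**Figure D4:**
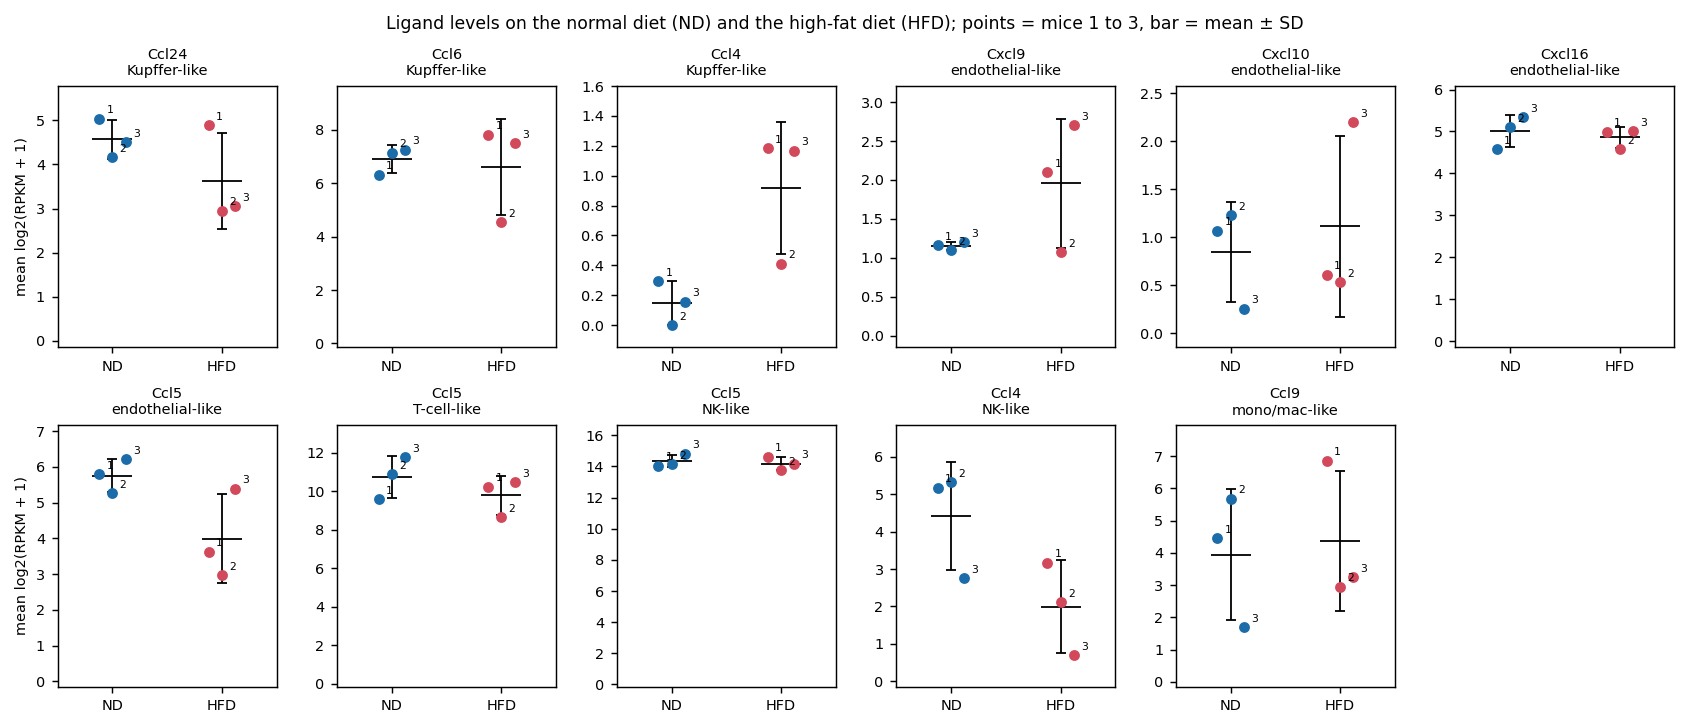
Levels of ligands in the class named above each of the 11 panels (mean log2(RPKM + 1), y axis) in ND (blue) and HFD (red) mice, with points numbered by mouse and a bar and line for mean ± SD. Only the Ccl4 values of KC-like cells (0 to 0.29 in ND, 0.41 to 1.18 in HFD) do not overlap among the 11 panels.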

How the data were processed

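Single NPCs of 6 mice were profiled with Smart-seq2. The authors aligned reads to mm10 with STAR and deposited RPKM values for RefSeq genes, that is read counts scaled by transcript length and library size, after their filters on cells and doublets. All 1470 columns were mapped to a mouse by label. Exon reads per cell were estimated from the steps of low RPKM values (61.0 to 63.0% within 0.05 of a whole multiple, median per mouse, 9868 genes with a length), and RPKM gives no count test.

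Values were taken as log2(RPKM + 1), which understates changes of low genes. Cells were clustered (1000 variable genes, 20 principal components, 15 neighbours, spectral clustering into 12 clusters) without 47 chemokine genes. Values were centred within each mouse, a choice made after uncentred clusters split off 1 mouse. Clusters were named by at least 3 detected markers. Replicates are separate mice.

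Mouse means of classes with at least 3 cells (classes) or 5 cells (diets) were fitted across genes with limma 3.58.1, with the mouse as a term between classes, no trend and Benjamini-Hochberg adjustment over all genes with a mean of at least 1 in the values compared (threshold 0.05). Ligands, marker lists and pathway lists were chosen with earlier results of these data known. Named genes were the ligands, the 3 genes most like each, their receptors and proteases, and other chemokine ligands with a class mean of at least 2. The diet comparison in monocyte/macrophage-like cells was added after the others had been seen. Scripts were tested on simulated data. Alternatives covered the pseudocount, filter, averaging, trend, spread, class assignment, cell minimum, mouse term or block, and each mouse left out. 1 receptor is not reported here. Python 3.11.15, scikit-learn 1.9.0 and R 4.3.3 were used.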

Additional observations from a re-analysis of the deposited data

How the results depend on the processing

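Of 608 values of 57 results under other settings, 545 kept their direction and side of the threshold or stayed within the spread, 27 moved, 26 reversed, 3 gained and 7 lost a call. The number of ligands called higher in their leading class was 5, and it was 3 with RPKM averaged before the logarithm, 1 with at least 10 cells per mouse, which leaves fewer classes, and 4 to 5 without each mouse in turn. The number of genes called between diets in KC-like cells was 1, and it was 2 with a mean-variance trend (whose prior degrees of freedom were infinite) and 0 without the filter on low values, with each gene's own spread, with RPKM averaged before the logarithm and with classes by marker score. It was 0 to 1 without each mouse, and 0 without ND mouse 1, ND mouse 2, ND mouse 3 or HFD mouse 1. In endothelial-like cells it was 0, and 1 with the trend, a pseudocount of 0.1 or classes by marker score, and 0 to 47 without each mouse, with 47 without HFD mouse 3. In B-cell-like and T-cell-like cells it was 0, and 1 with the trend. In T-cell-like cells it was 0 to 1 without each mouse, with 1 without ND mouse 3.

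Mouse numbers 1 to 3 recur in both diets, and same-numbered mice were not paired in the main fit, as no label pairs them. Of the 12 correlations of their deviations, 5 were over 0.1 (from -0.16 to 0.20). They were all positive in B-cell-like and T-cell-like cells and of both signs in KC-like and endothelial-like cells. Correlations of differently numbered mice ran from -0.22 to 0.22. These values do not settle whether the numbers pair the mice. With the number as a replicate block, 0 genes were called in KC-like, endothelial-like, B-cell-like and T-cell-like cells and 1 in monocyte/macrophage-like cells, where it was 0 in every other fit (no filter on low values, and 0 to 0 without each mouse).

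Directions turned as follows. With classes by marker score, the differences of Ccl3 (NK-like minus monocyte/macrophage-like) and Cxcl9 (endothelial-like minus monocyte/macrophage-like) were -0.33 and -0.0668. For Ccl6 (KC-like minus monocyte/macrophage-like) it was -0.57 by marker score, -0.0112 with a pseudocount of 0.1, and -0.27 to 0.58 without each mouse. Of the HFD minus ND differences, with RPKM averaged before the logarithm, Ccl24 and Cxcl16 in KC-like cells were 0.0152 and -4.58e-04. Without each mouse, KC-like Ccl6 was -0.89 to 0.75, KC-like Cxcl16 -0.23 to 0.95, endothelial-like Ccl6 -0.30 to 0.34, endothelial-like Cxcl16 -0.36 to 0.0172, B-cell-like Ccl6 -0.37 to 0.22 and T-cell-like Ccl6 -0.16 to 0.44. In monocyte/macrophage-like cells Ccl9 was -0.84 to 1.28, Cxcl9 -0.47 to 0.24 and Cxcl16 -0.80 to 1.05. The difference of the mouse means of Cxcl10 in that class was 0.52, and it was -0.15 without HFD mouse 3. T-cell-like Ccl6 was -0.11 with a pseudocount of 0.1 and -0.15 by marker score. The causes were not tested.

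Limits are the few cells of the NK-like and monocyte/macrophage-like classes, RPKM without counts or molecular identifiers, transcripts of other classes found in most cells, and class names rebuilt here. With 3 mice per diet, the spread between mice limits the calls.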

Other observations

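Of 16 other chemokine ligands analysed, 2 reached a mean level of 2 in any class and 12 stayed under 1 in every class. Xcl1, which attracts cross-presenting dendritic cells through Xcr1, had 4.59 ± 1.23 in other T-cell-like and 4.59 ± 2.81 in NK-like cells (SD, n = 6), beside 4.04 ± 1.08 in CD4 and 3.01 ± 1.51 in CD8 T-cell-like cells, and up to 1.32 elsewhere. Cxcl13, which attracts B cells through Cxcr5, had 2.12 ± 1.77 in KC-like cells, which held 96.8% of its summed RPKM. Its level in KC-like cells was 2.59, 5.33 and 2.05 in ND mice and 1.48, 0.26 and 0.98 in HFD mice, without overlap, as for 6.27% of the genes tested there. The difference was -2.42 ± 0.75 (SE; limma, adjusted p = 0.99995), and it was not called. Near the floor, Cxcl13 was also lower in HFD without overlap in 3 classes of the same 6 mice. The ND and HFD means were 0.39 and 0.10 in endothelial-like, 0.45 and 0.06 in B-cell-like and 0.27 and 0.05 in T-cell-like cells. The part of KC-like RNA in these values was not tested.

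Of 17 chemokine receptors, 4 to 6 were tested between diets in each of KC-like, endothelial-like, B-cell-like and T-cell-like cells, and 0 were called. Cxcr3, the receptor of Cxcl9 and Cxcl10, was lower in HFD without overlap in these 4 classes and in monocyte/macrophage-like cells, of the same 6 mice, beside 5.54 to 9.29% of the genes tested without overlap in a class. In endothelial-like, B-cell-like and KC-like cells 10 of 10 T-cell markers also had a lower mean in HFD, with their mean at 1.199 to 1.599 in ND and 0.55 to 1.28 in HFD mice in KC-like cells, and their part in the Cxcr3 values was not tested. In T-cell-like cells it had 7.43, 6.97 and 6.79 in ND mice and 6.65, 5.44 and 6.10 in HFD mice, a difference of -0.99 ± 0.53 (SE; limma, adjusted p = 0.9998) that was -0.68 without HFD mouse 2. Cxcr6 in T-cell-like cells, the receptor of Cxcl16, had 8.22, 7.47 and 7.32 in ND mice and 7.41, 5.14 and 6.01 in HFD mice, a difference of -1.49 ± 0.58 (SE; limma, adjusted p = 0.9998) that was -0.96 without HFD mouse 2. The T-cell-like cells came from 2 clusters with Cxcr6 at 8.27 ± 0.62 and 4.52 ± 1.14 (SD, n = 6), higher in the former in 6 of 6 mice. The latter gave 15, 18 and 16 cells in ND mice and 13, 42 and 8 in HFD mice, the former 42, 36 and 35 cells in ND mice and 38, 36 and 13 in HFD mice. Within the former cluster Cxcr3 was 8.91, 8.83 and 8.15 in ND and 7.50, 6.81 and 8.68 in HFD mice, and within the latter 3.29, 3.24 and 3.798 in ND and 4.198, 4.28 and 1.92 in HFD mice, with overlap in both. Cxcr6 was 9.10, 8.86 and 8.10 in ND and 8.32, 7.59 and 7.66 in HFD mice in the former, and 5.76, 4.68 and 5.62 in ND and 4.73, 3.04 and 3.31 in HFD mice in the latter, with overlap in both.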
